A study of Saccharomyces cerevisiae with 21 samples.

Results

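The subtelomeric DNA of budding yeast was taken as the 20 kb next to each end of 15 nuclear chromosomes, with chromosome III left out. A position, meaning 1 coordinate on 1 strand, belonged to it when it lay at coordinate 20000 or below, or within 20000 bp of the highest coordinate with a value on its chromosome. These 30 arm ends held 199904 of the 6321843 nuclear positions at which any of 17 libraries had a ribonucleotide. That is 3.16% of the positions on 5.12% of the length. The members were chosen by coordinate alone and not by their values. Of them 106320 lay on the strand running to the end, which is the plus strand on right arms and the minus strand on left arms, and 93584 on the strand running from the end. Most were sparse: 145674 positions, or 72.9%, had a value in 1 library only, and no position had a value in more than 12 libraries.

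Subtelomeres lie between the telomere repeats and the first unique genes of a chromosome arm. In S. cerevisiae they carry an X element on every arm and, on some arms, Y′ elements that encode helicases of the YRF1 family, along with repeated gene families such as PAU (cell wall mannoproteins), COS and the maltose and hexose transporter genes. They replicate late in S phase and are partly silenced by Sir proteins. A replication fork that moves to a chromosome end makes the strand running to that end as its leading strand. Ribonucleotides that DNA polymerases place in DNA are normally cut out by ribonuclease H2, whose catalytic subunit is Rnh201 and whose accessory subunits are Rnh202 and Rnh203. In people, mutations in the subunit genes cause Aicardi-Goutières syndrome, an inherited inflammatory disease of brain and skin.

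All cells were haploid BY4742 of mating type α, an S288C derivative, grown to stationary phase. The groups were rnh203-K46W (5 libraries), with a disease-orthologous change in an accessory subunit, rnh201-G42S (3 libraries), with one in the catalytic subunit, rnh201-null (3 libraries), which lacks the catalytic subunit, and wild type (WT, 6 libraries). Ribose-seq captures DNA that ends in a ribonucleotide and gives its base and strand. The deposited value is a normalized enrichment factor, a ratio per position and strand that is absent where a library had no ribonucleotide. The labels do not say whether libraries of a genotype came from separate cultures or clones, so the spread between them may be technical. Nothing in the labels gives the restriction enzymes used for each library.

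Depth differed between libraries by orders of magnitude. The number of nuclear positions with a value ran from 6149 to 1177877 in rnh203-K46W, from 598175 to 2588676 in rnh201-G42S, from 1386 to 1494434 in rnh201-null and from 619 to 35565 in WT. Deep libraries are those with over 100000 such positions, and 8 qualified: rnh203-K46W replicates 3, 4 and 5, all 3 of rnh201-G42S, and rnh201-null replicates 2 and 3. No WT library was deep. Chromosome XIV carries RNH201, the deleted gene. It was searched for the stretch empty in each rnh201-null library that held the most coordinates of the other genotypes. This was 490322 to 491238 (sacCer2), with 28 to 126 positions in the deep rnh203-K46W libraries and 80 to 291 in rnh201-G42S. The 0 positions of the rnh201-null libraries there were set by this choice, so they are no independent check of the labels. The shallow rnh203-K46W replicate 2 and WT replicates 1, 2 and 5 also had 0. Coordinates of RNH201 itself were not looked up. The libraries also fell into 2 sets by their mitochondrial profile, with a mean Spearman rho of 0.636 within and 0.237 between sets. Set B held replicates 3 and 5 of rnh203-K46W, replicate 2 of rnh201-G42S, replicate 3 of rnh201-null and replicates 2, 4 and 5 of WT. Set A held the other 10 libraries, so the sets cross the genotypes. Library series is a grouping made here from the first digit of the library number in the titles (100, 200 or 300), whose meaning the labels do not give. All rnh203-K46W libraries were of series 300 and no WT library was, so a difference between these 2 genotypes and one between series cannot be told apart.

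The subtelomeres carried fewer ribonucleotides per base than the interior in most libraries of each genotype. Density here is the summed value per base within 20 kb of an end over that in the rest of the nuclear genome. It was 0.639, 0.916, 0.424, 0.469 and 0.443 in the 5 rnh203-K46W libraries. In rnh201-G42S it was 0.594, 0.588 and 0.566, and in rnh201-null 0.475, 0.554 and 0.57. The 6 WT libraries had 0.617, 8.17, 0.685, 0.737, 0.83 and 0.492. Thus 16 of 17 libraries lay below 1, and the exception was WT replicate 2, which held 38 subtelomeric positions in all. The mean of rnh203-K46W was 0.578 ± 0.207 (SD, n = 5), that of rnh201-G42S 0.582 ± 0.0148 (SD, n = 3). It was 0.532 ± 0.0503 (SD, n = 3) in rnh201-null and 1.92 ± 3.06 (SD, n = 6, median 0.711) in WT. Among deep libraries the 3 of rnh203-K46W, at 0.445 ± 0.0228 (SD, n = 3), lay below the 3 of rnh201-G42S and the 2 of rnh201-null, at 0.561 ± 0.0101 (SD, n = 2). No test was made of these summed values, because the regions were chosen with earlier results known.

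Both the number of positions and the median value per position were lower near the ends, except in WT replicate 2. Counting each position with a value once gave ratios of 0.51 to 0.61 in rnh203-K46W, 0.60 to 0.64 in rnh201-G42S, 0.52 to 0.63 in rnh201-null and 0.52 to 1.21 in WT. The median value per position, relative to the interior, was 0.793 to 0.810 in the 5 rnh203-K46W libraries. It was 0.944 to 0.956 in rnh201-G42S, 0.905 to 0.910 in rnh201-null, and 0.895 to 0.945 in WT without replicate 2, which stood at 3.93. The rnh203-K46W libraries therefore lay below all others in this measure and did not overlap them. How the deposited value was normalized, by library or by genotype, is not given in the sources used here. Its part in this difference was not tested.

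Density fell in steps towards the end. At 10-20 kb from the end it averaged 0.818 ± 0.360 (SD, n = 5) in rnh203-K46W. In rnh201-G42S it was 0.716 ± 0.00504 (SD, n = 3), and it averaged 0.633 ± 0.108 (SD, n = 3) in rnh201-null and 0.620 ± 0.169 (SD, n = 6) in WT. At 5-10 kb the means over the same libraries were 0.347 ± 0.0824 in rnh203-K46W, 0.547 ± 0.0572 in rnh201-G42S, 0.488 ± 0.0249 in rnh201-null and 0.566 ± 0.169 in WT. At 1-5 kb they were 0.243 ± 0.0211 in rnh203-K46W, 0.355 ± 0.0232 in rnh201-G42S, 0.381 ± 0.0627 in rnh201-null and 0.348 ± 0.0864 in WT. The order 1-5 kb below 5-10 kb below 10-20 kb held in 14 of 17 libraries, and 1-5 kb lay below 10-20 kb in 17 of 17. Beyond the boundary the density was still under 1 at 20-40 kb in 15 of 17 libraries, and at 40-60 kb in 6 of 17. The first kilobase on either side of the 20 kb limit showed no step: the deep libraries had a median density of 0.794 (range 0.563 to 1.23) at 19-20 kb and of 0.761 (range 0.615 to 0.951) at 20-21 kb.

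The outermost kilobase did not follow this grading. There the density was 0.358, 1.95, 0.615, 0.127 and 0.318 in rnh203-K46W and 0.379, 0.443 and 0.160 in rnh201-G42S. It was 0.247, 0.198 and 0.589 in rnh201-null, and 0, 157, 0.756, 4.80, 5.05 and 0.508 in WT. Libraries of each genotype spread widely, and 4 of 17 exceeded 1: rnh203-K46W replicate 2 and WT replicates 2, 4 and 5.

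**Figure D1:**
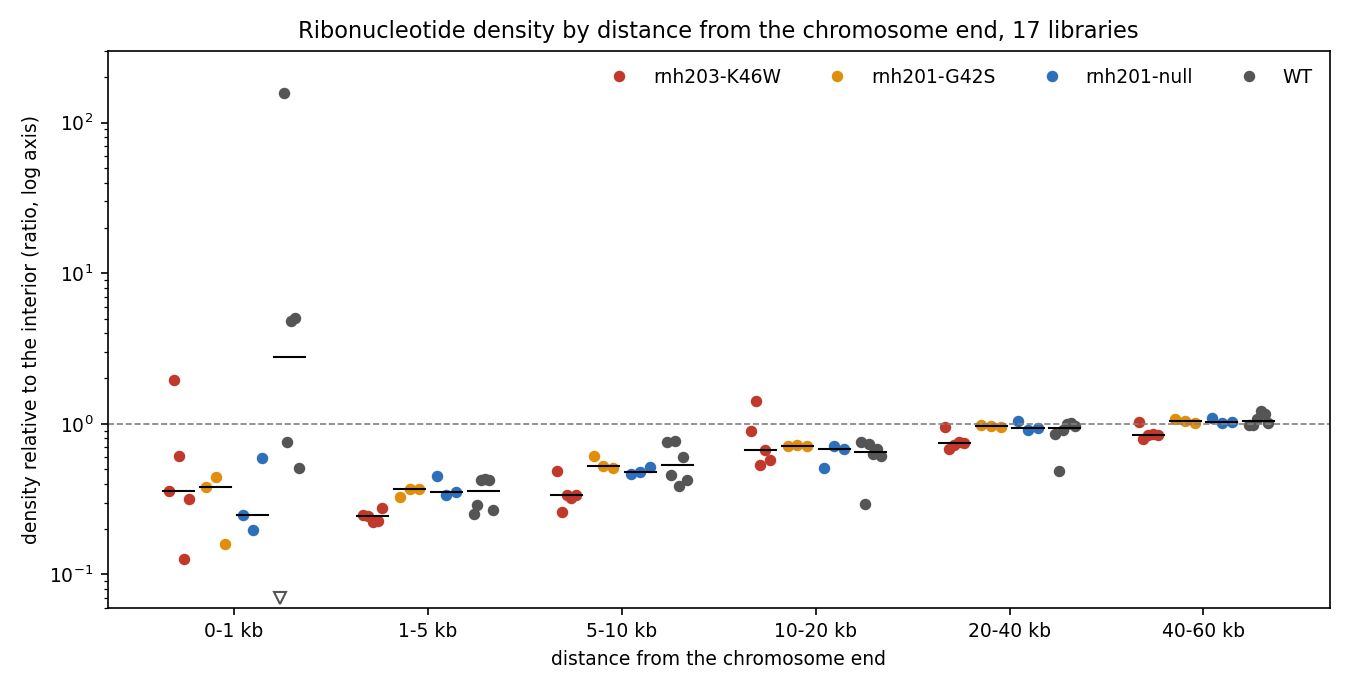
Density relative to the interior (log axis) in 6 distance ranges from the chromosome end, 1 point per library, black bars at genotype medians, and an open triangle for WT replicate 1, which is at 0 in the outermost kilobase. Points rise towards 1 from 1-5 kb to 40-60 kb in each genotype, while those of the outermost kilobase scatter from 0 to 157.

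A share of subtelomeric DNA had no value in any library. Of 100 bp bins, 71.6% held a value in at least 1 library within 20 kb of an end, against 97.3% in the interior. By distance the share was 55.6% at 0-1 kb, 53.5% at 1-5 kb, 70.1% at 5-10 kb and 81.3% at 10-20 kb. Over bins with a value alone, density was below 1 at 0-1 kb in 10 of 17 libraries, at 1-5 kb in 17, at 5-10 kb in 15 and at 10-20 kb in 15. Over the whole 20 kb it was then not below 1 in rnh203-K46W replicate 2, at 1.24, nor in WT replicates 2, 4 and 5, at 11.1, 1.001 and 1.13. The other WT libraries had 0.838, 0.931 and 0.668. At 1-5 kb it was 0.40 to 0.50 in the rnh203-K46W libraries, in rnh201-G42S 0.60 to 0.67, in rnh201-null 0.62 to 0.82 and in WT 0.46 to 0.78. Whether repeated sequence leaves these bins empty was not tested.

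Single arms were tested against the library mean by limma, a test added after seeing the data, over all 584 tiles of 20 kb that passed a mean density of 0.1, with Benjamini-Hochberg adjustment. Of the 30 subtelomeric tiles 28 passed this filter, and the left arms of chromosomes IX and X did not. In rnh203-K46W 6 of 28 subtelomeric tiles were called lower, against 1.2% of all tiles. In rnh201-null 4 of 28 were lower, against 0.856% of all tiles, and in WT 11 of 28, against 7.88%. In rnh201-G42S the count was 0 of 28, against 0% of all tiles, with 8 of 28 at an unadjusted p under 0.05. No subtelomeric tile was called higher in any genotype. Over all tiles the median log2 difference was -0.36 in WT, against -0.003 in rnh203-K46W, -0.02 in rnh201-G42S and -0.03 in rnh201-null. Tiles of the shallow WT libraries thus lay lower in this test across the genome. VIII-R, the right end of chromosome VIII (542585 to 562584), was the lowest called in rnh203-K46W, with a log2 difference from the library mean of -2.77 ± 0.32 (SE, adjusted p 4.70e-05). It was also called in rnh201-null at -2.56 ± 0.42 (adjusted p 0.00468) and in WT at -2.26 ± 0.30 (adjusted p 1.18e-04). Its outermost genes in the annotation include IMD2, an IMP dehydrogenase homologue, and PHO12, an acid phosphatase. Besides VIII-R, 3 arms were called lower in each of these genotypes: XIV-L, XV-R and XVI-L. At VIII-R and at these 3 arms the shallow rnh201-null replicate 1 had no value, so its tiles there were set by the pseudocount. WT had no value in 2 of 6 libraries at VIII-R and at XVI-L, and rnh203-K46W in 1 of 5 at VIII-R. These arms are Y′ arms, as are 17 of all 30, and had a value in few of their 100 bp bins: 36.4% at VIII-R, 56% at XIV-L, 39% at XV-R and 38.5% at XVI-L. Over bins with a value alone, their deep libraries averaged 0.426 at VIII-R, 0.503 at XIV-L, 0.571 at XV-R and 0.722 at XVI-L, the last above the median of 0.699 over all arms.

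The arms differed far more among themselves than the deep libraries did within an arm. Mean density over the 8 deep libraries ran from 0.0203 at IX-L to 1.08 at XIII-R, with a median of 0.570 over 30 arms, and 11 arms lay under 0.5. IX-L and X-L, with densities of 0.0203 ± 0.00685 and 0.0215 ± 0.0148 (SD, n = 8 each), had a value in only 4.5% and 5.5% of their 100 bp bins. Across the 30 arms the Spearman correlation between the share of bins with a value and the density was 0.87, given as a description of arms that share the same libraries. Over bins with a value alone the range narrowed to 0.340 at I-R through 1.09 at XIII-R, with a median of 0.699. The order of arms was alike in different deep libraries, with pairwise Spearman correlations of 0.61 to 0.95 (median 0.87, 28 pairs).

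**Figure D2:**
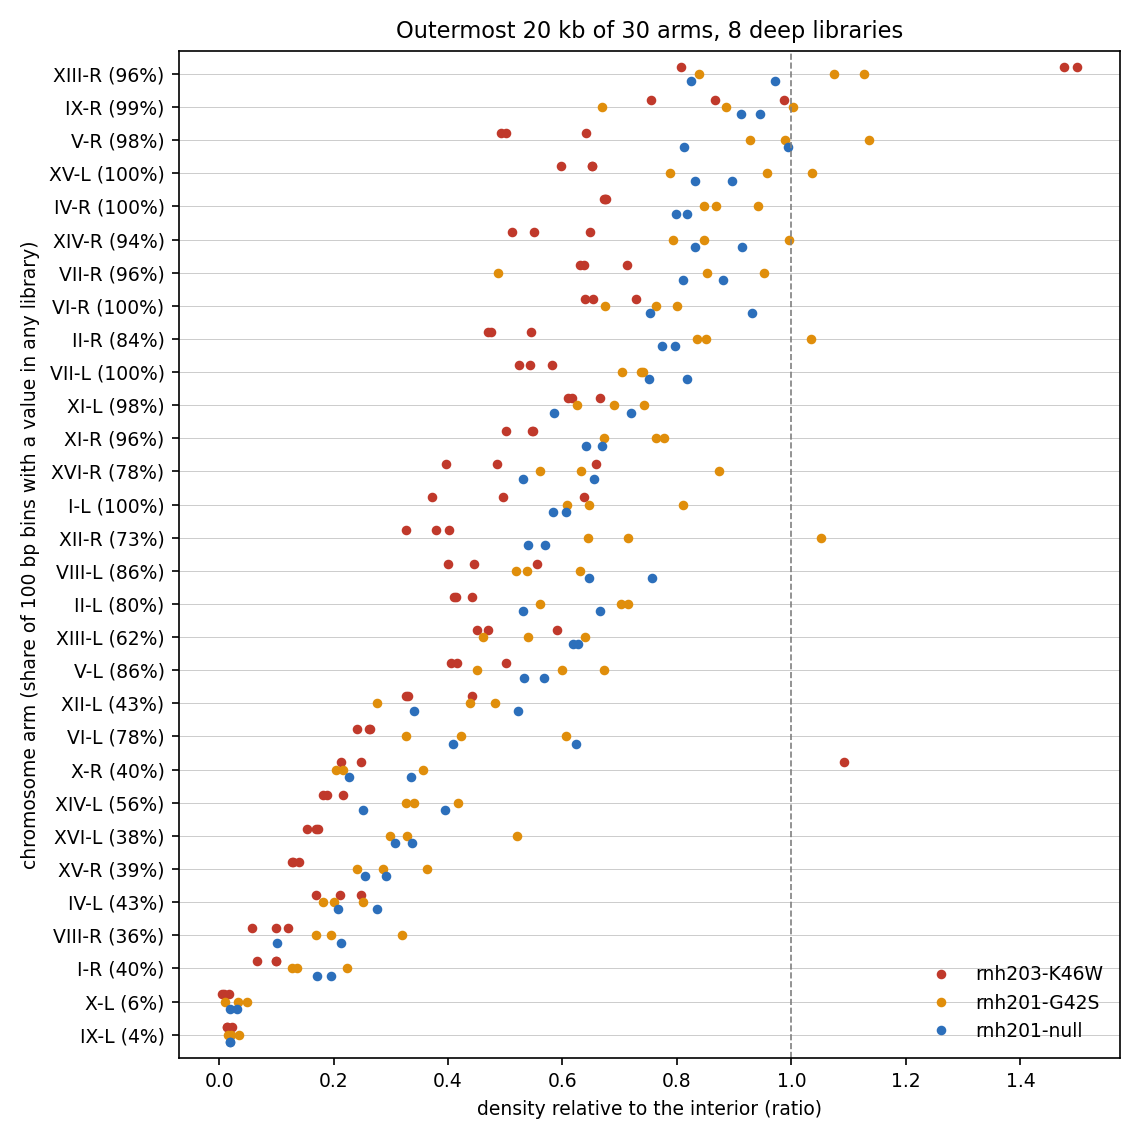
Density relative to the interior of the outermost 20 kb of each arm (arms ordered by their mean, share of 100 bp bins with a value in brackets), 1 point per deep library coloured by genotype. IX-L and X-L lie near 0, XIII-R is the only arm with a mean above 1, and 1 rnh203-K46W library stands apart at X-R.

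Named by their extremes, the arms were similar between genotypes at the low end and different at the high end. In rnh203-K46W the lowest mean was 0.00609 ± 0.00711 at X-L and the highest 3.65 ± 4.54 at XIII-R (SD, n = 5 each). In rnh201-G42S the lowest was 0.0242 ± 0.0100 at IX-L and the highest 1.02 ± 0.107 at V-R (SD, n = 3 each). In rnh201-null IX-L had 0.0132 ± 0.0114 and XI-L 1.32 ± 1.16 (SD, n = 3 each). In WT IX-L had 0.00243 ± 0.00594, with no value in 5 of 6 libraries, and I-L 37.2 ± 88.2 (SD, n = 6 each). The WT mean at I-L was set by replicate 2, as its median of 1.55 shows. The rnh201-null mean at XI-L likewise holds the shallow replicate 1, without which it was 0.652 ± 0.0954 (SD, n = 2).

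Arms that end in a Y′ element had a lower median density than arms with an X element only. The assignment of arms to these classes is textbook knowledge of the S288C genome; all 7 arms with a YRF1 gene among their 6 outermost genes in the RefSeq annotation were in the Y′ list. Over deep libraries the 17 Y′ arms had a median density of 0.518 (range 0.0203 to 0.812) and the 13 arms with X only 0.675 (range 0.140 to 1.08), so the classes overlapped. Within each of the 8 deep libraries the mean over Y′ arms was the lower, for example 0.352 against 0.623 in rnh203-K46W replicate 4 and 0.465 against 0.669 in rnh201-null replicate 2. The classes also differed in the share of bins with a value, with medians of 73% for Y′ arms and 96.5% for X-only arms. Over bins with a value alone the medians were 0.675 for Y′ arms and 0.722 for X-only arms.

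A few positions held much of the signal of their arm in some libraries. The plus strand at XIII 911883, 12471 bp from the right end and on the strand running to it, had values of 40414, 222763, 1689, 15123 and 13036 in the 5 rnh203-K46W libraries, 58605 ± 92851 (SD, n = 5). In rnh201-G42S it had 204, 77.1 and 506, in rnh201-null 37.9 in replicate 2 only, and in WT 11834, 1763 and 650 in replicates 1, 4 and 6. It had a value in 12 of 17 libraries, the most for any subtelomeric position. It supplied 72.0%, 94.7%, 10.1%, 49.4% and 41.8% of the value of XIII-R in the rnh203-K46W libraries, at most 2.94% in rnh201-G42S and 0.224% in rnh201-null, and 51.7%, 7.23% and 6.24% in WT replicates 1, 4 and 6. One shallow WT library thus had a share within the range of rnh203-K46W. Without it the density of XIII-R was 0.624 to 0.872 in rnh203-K46W, 0.814 to 1.12 in rnh201-G42S, 0.823 to 1.51 in rnh201-null and 0 to 1.12 in WT. The outermost genes of this arm are PAU19, ERR3, an enolase-related gene, and SNO4.

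Other named positions were as uneven. On X-R the minus strand at X 726182, 19560 bp from the end, had 17574, 39763, 443, 15759 and 1370 in rnh203-K46W, 273 in rnh201-G42S replicate 3, 16.5 in rnh201-null replicate 2 and 337 in WT replicate 6. It made up 69.6% of X-R in rnh203-K46W replicate 4, the library that stands apart at this arm; without the position its density there was 0.332 in place of 1.09. The third by mean in rnh203-K46W was XI 18237 on the minus strand of XI-L, with 18132, 4313, 125, 1500 and 598. In rnh201-G42S the 3 highest means were 285 ± 239 at XIV 775054 (plus), 262 ± 220 at XIII 911883 and 258 ± 351 at XV 14936 (plus) (SD, n = 3 each). These means lay below those of the 3 rnh203-K46W positions, but single values overlapped: rnh201-G42S reached 555 at XIV 775054 and 660 at XV 14936, against 443 in rnh203-K46W replicate 3 at X 726182 and 125 at XI 18237. The highest rnh203-K46W values were those of replicates 1 and 2, which were not deep, whereas all rnh201-G42S libraries were. Position values were not scaled for depth here: at XII 1062639 the shallow rnh201-null replicate 1 had 8477 and the deep replicate 2 had 5.60. Means of such values, here and at XIII 911883, thus differ in depth as well as in genotype. In WT the highest mean was at I 46 on the minus strand, 45 bp from the left end, with values in replicates 2, 4 and 5 of 664543, 3173 and 6725. It was followed by XV 1091284 on the plus strand, 4 bp from the right end, with 18139, 2252 and 3182 in the same replicates. The rnh201-null rule reached 2 of 3 libraries, and its 3 positions (XII 1062639 and XII 1062816 on the minus strand, II 799689 on the plus strand) each rested on the shallow replicate 1, at values of 8477, 7506 and 7390.

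Summed over the 20 kb, values were higher on the strand running to the end in each library. This did not hold in each library with the outermost kilobase left out, as given below. The strand ratio, the log2 of the summed value on the strand to the end over that on the strand from the end, was 0.36, 1.21, 0.17, 0.10 and 0.30 in rnh203-K46W. It was 0.56, 0.30 and 0.44 in rnh201-G42S and 1.18, 0.11 and 0.20 in rnh201-null. In WT it was 0.69, 5.23, 0.28, 0.74, 0.65 and 0.43. All 17 lay above 0. The mean of rnh203-K46W was 0.43 ± 0.45 (SD, n = 5), that of rnh201-G42S 0.43 ± 0.13 (SD, n = 3). It was 0.50 ± 0.59 (SD, n = 3) in rnh201-null and 1.33 ± 1.92 (SD, n = 6, median 0.67) in WT. Over deep libraries alone the mean was 0.19 ± 0.10 (SD, n = 3) in rnh203-K46W and 0.15 ± 0.07 (SD, n = 2) in rnh201-null; the highest of rnh203-K46W and the lowest of rnh201-G42S were both 0.30. With each position counted once the ratio was 0.05 to 0.13 in rnh203-K46W, 0.30 to 0.47 in rnh201-G42S, 0.10 to 1.30 in rnh201-null and 0.18 to 2.15 in WT.

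With the outermost kilobase left out, the ratio dropped most in part of WT and to about 0 in rnh203-K46W replicate 3. It was then 0.36, 1.04, 0.00, 0.09 and 0.24 in rnh203-K46W, 0.52, 0.29 and 0.43 in rnh201-G42S, and 1.31, 0.12 and 0.22 in rnh201-null. WT had 0.69, -0.98, 0.14, -0.02, -0.17 and 0.39, so replicates 2, 4 and 5, which are the WT libraries of set B, lay below 0. By distance, the ratio was above 0 in 14 of 17 libraries at 10-20 kb, in 12 at 5-10 kb, in 12 at 1-5 kb and in 13 at 0-1 kb. Outside the 20 kb it was above 0 in 10 of 17 at 20-40 kb and in 13 of 17 at 40-60 kb, so this lean was not confined to the subtelomeres. In the outermost kilobase 0 of 3 rnh201-null libraries were above 0: replicates 2 and 3 had -0.70 and -0.16, and replicate 1 had a single position, on the strand from the end. Without IV-R and VII-R replicate 2 had -0.31 and replicate 3 0.38. All 3 rnh201-G42S libraries were above 0 in each of these 4 ranges, at 20-40 kb and at 40-60 kb.

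**Figure D3:**
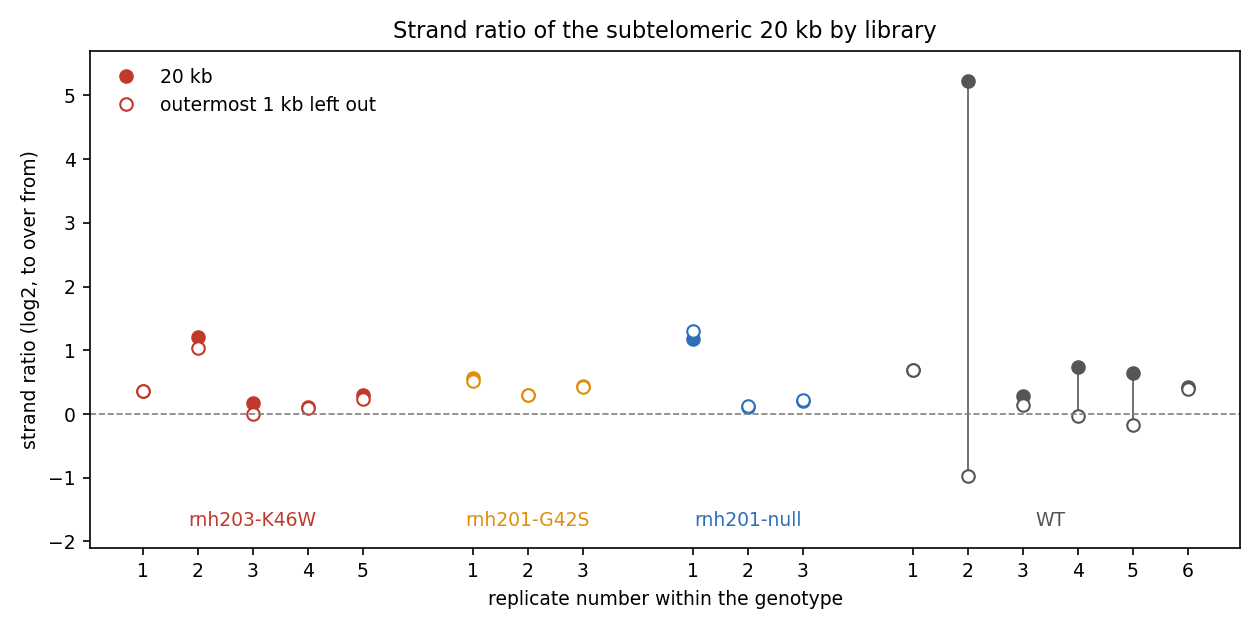
Strand ratio (log2, strand to the end over strand from the end) of the subtelomeric 20 kb in each library, filled for the whole 20 kb and open with the outermost 1 kb left out. Filled points are above 0 in all 17 libraries, and the open points of WT replicates 2, 4 and 5 are below 0.

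Values in the outermost 100 bp lay mostly on the strand running to the end. These are counts of placed values, and how reads at the edge of the reference sequence are placed was not tested. In the outermost 100 bp the 17 libraries together had 672 values on the strand to the end and 152 on the strand from it, a value being a position in a library. The 152 were not spread evenly: IV-R held 104 and VII-R 38, and these arms together had 7 values on the strand to the end. At the other 28 arms there were 665 values to the end and 10 from it, so 98.5% ran to the end. This split of the arms was made after the counts were seen and carries no test. Over all 30 arms rnh201-null replicate 2 ran the other way, with 17 positions to the end and 41 from it, and replicate 3 had 108 to the end and 57 from it. At the 28 arms, each of the 15 libraries with a value had more positions to the end than from it. There they were 8, 13, 85, 68 and 74 to the end against 0 from it in rnh203-K46W, and 27, 71 and 105 against 1, 0 and 3 in rnh201-G42S. In rnh201-null replicates 2 and 3 there were 17 and 108 against 1 and 1. WT replicates 2 to 6 had 27, 1, 19, 37 and 5 against 0, 0, 0, 3 and 1. Values came from 25 arms, led by XII-L with 95, I-L with 93 and XII-R with 55 to the end, and 36.2% of those to the end lay at these 3 arms.

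The one-sidedness ended within a short distance. At the 28 arms the share of values on the strand to the end was 99.4% at 0-20 bp, 100% at 20-40 and at 40-60 bp, 95.5% at 60-80 bp and 95.9% at 80-100 bp. It was 67.9% at 100-200 bp, 74.8% at 200-400 bp and 49.2% at 400-1000 bp. Thus the strands were even by the last of these steps, where 7 libraries had more positions on each strand. How reads that reach the end of the reference sequence are placed was not tested.

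**Figure D4:**
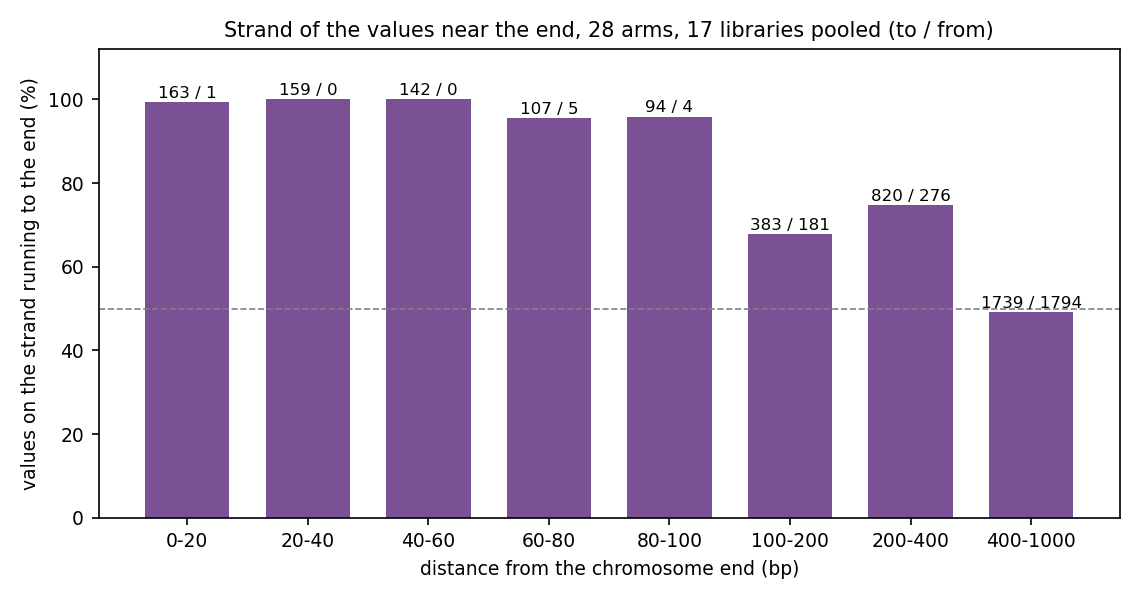
Share of values on the strand running to the end, in steps of distance from the end, over 28 arms (without IV-R and VII-R) and 17 libraries pooled; numbers above the bars are values to and from the end. Bars stand between 95.5% and 100% up to 100 bp and at 49.2% at 400-1000 bp.

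The arms themselves limit what can be read at the ends. Left ends were counted from coordinate 1 and right ends from the last position with a value. On 5 left arms the first value lay further in, at 325 on V, 763 on VI, 2143 on X, 6582 on XIV and 6816 on XVI, and these are the 5 arms with no value in the outermost 100 bp. The end of IV-R and of VII-R is the last position with a value (IV 1525447 and VII 1084392), which, as on the other right arms, need not be the end of the chromosome. Distances, bins and counts of each right arm, XII-R among them, are measured from that position. Chromosome lengths were not looked up, so how far such a position lies from the true end is not known here.

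Signal at the very end differed between the 2 sets of libraries, whose ranges overlapped. On the strand to the end the density of the outermost 100 bp, relative to the interior per strand, was 1.70 to 3139 (median 8.50) in the 7 set B libraries and 0 to 33.7 (median 0.888) in the 10 set A libraries. By genotype it was 1.48, 33.7, 8.50, 0.529 and 3.68 in rnh203-K46W, 1.46, 1.70 and 0.498 in rnh201-G42S, 0, 0.121 and 2.21 in rnh201-null, and 0, 3139, 1.25, 76.3, 84.0 and 2.43 in WT. The highest set B values were those of WT replicates 2, 4 and 5, which held 27, 19 and 39 positions there. The arms behind them differed by set: all 93 values of I-L and 46 of 47 at XI-L came from set B, whereas 56 of 95 at XII-L and 46 of 55 at XII-R came from set A. The part of the restriction enzymes in this was not tested.

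Per arm, the strand ratio was less even than its sum. Over the deep libraries 21 of 30 arms had a mean above 0. It was above 0 in 8 of 8 libraries at 5 arms, namely XIII-R, XV-R, I-L, XIII-L and XII-L, and below 0 in 8 of 8 at XII-R. The 5 largest means were 1.20 ± 0.68 at XIII-R, 1.04 ± 0.83 at XV-R, 0.69 ± 0.41 at I-L, 0.69 ± 0.38 at XIII-L and 0.67 ± 1.07 at XVI-L (SD, n = 8 each). The 5 smallest were -0.69 ± 1.39 at X-L (n = 7), -0.54 ± 0.46 at XII-R, -0.45 ± 0.79 at VIII-R, -0.15 ± 0.54 at IX-L (n = 7) and -0.13 ± 0.27 at VIII-L (SD, n = 8 otherwise). At XVI-L, X-L, VIII-R, IX-L and VIII-L the SD exceeded the size of the mean. Unlike density, the order of arms by strand ratio was only loosely shared between deep libraries, with pairwise Spearman correlations of -0.06 to 0.71 (median 0.25, 28 pairs). Of 30 arms, 23, 22 and 26 were above 0 in rnh201-G42S, 19 and 20 in rnh201-null replicates 2 and 3, and 16, 22 and 18 in rnh203-K46W replicates 3, 4 and 5.

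XII-R, where YRF1-5 and YRF1-4 are the outermost genes, was the only arm with a strand ratio below 0 in all 8 deep libraries. Its strand ratio was -0.07, -0.14 and -0.03 in the deep rnh203-K46W libraries, -0.65, -1.07 and -0.47 in rnh201-G42S and -0.60 and -1.28 in rnh201-null replicates 2 and 3. The rnh203-K46W libraries were thus nearest to 0. In WT only 3 libraries had a value on both strands of this arm, with -1.93, -0.18 and 1.31.

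**Figure D5:**
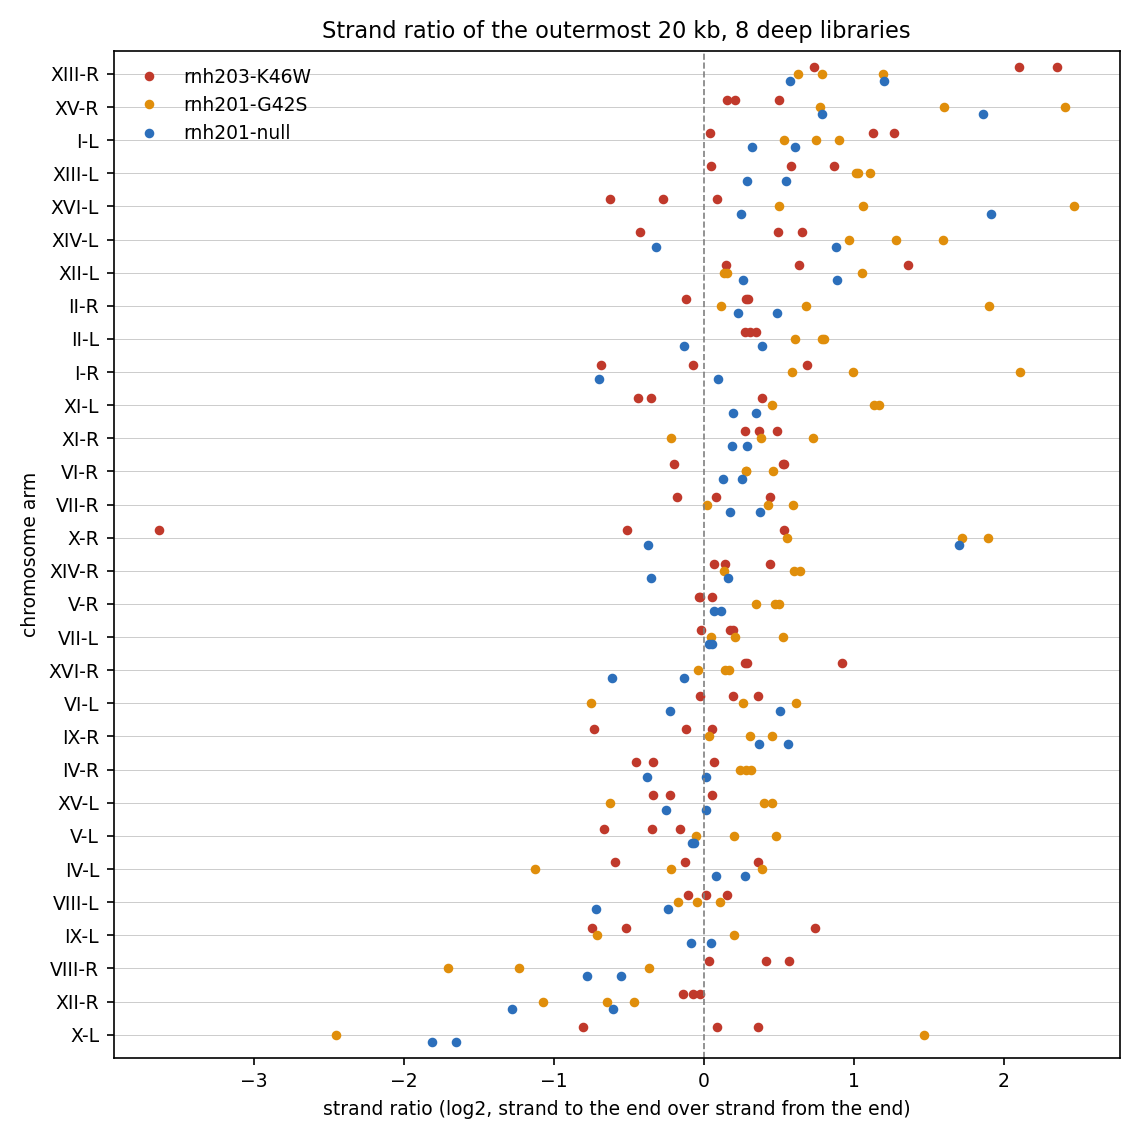
Strand ratio (log2, strand to the end over strand from the end) of the outermost 20 kb of each arm, arms ordered by their mean, 1 point per deep library coloured by genotype; libraries with an empty strand at an arm have no point. XIII-R is above 0 and XII-R below 0 in all 8 libraries, and most arms between them have points on both sides of 0.

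The strand ratio of each tile was then tested against 0 by limma over all 584 tiles. With all libraries in the fit 1 of 28 subtelomeric tiles was called in rnh203-K46W, against 0.171% of all tiles with the strand to the end higher. It was XIII-R (904355 to 924354), with a log2 ratio of 2.51 ± 0.49 (SE, adjusted p 0.0298). In rnh201-G42S and rnh201-null no tile was called, subtelomeric or other (0% of tiles), with 1 subtelomeric tile each at an unadjusted p under 0.05. In WT 0 of 28 were called, against 1.71% of all tiles with the strand to the end higher, with 7 of 28 at an unadjusted p under 0.05. The call at XIII-R was lost with each position counted once, with a pseudocount of 1, with library series as a covariate, in either set, in deep libraries and without most single libraries. Without the position at XIII 911883 the XIII-R strand ratio was 0.62, 1.61, 0.48, 1.07 and 1.06 in the 5 rnh203-K46W libraries, above 0 in each. The other mutants overlapped these, with 1.18, 0.78 and 0.56 in rnh201-G42S and 1.62, 0.57 and 1.20 in rnh201-null. WT replicates 3 to 6 had 0.11, -0.70, 0.69 and -0.04.

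Fitted on the deep libraries alone, a choice made after seeing the data, the rnh201-G42S tiles gave calls in both directions. Of 28 subtelomeric tiles 11 were called with the strand to the end higher, against 23.3% of all tiles, and 2 with the strand from the end higher, against 14.6%. The largest was XV-R at 0.88 ± 0.20 (SE, adjusted p 0.00346), followed by XVI-L at 0.85 ± 0.22 (adjusted p 0.00740) and XIV-L at 0.80 ± 0.18 (adjusted p 0.00312). VIII-R, at -0.56 ± 0.16 (adjusted p 0.0115), and XII-R, at -0.57 ± 0.16 (adjusted p 0.0117), ran the other way. Counting each position once gave 19 of 28 with the strand to the end higher in rnh201-G42S, against 30.7% of all tiles. In the deep libraries of rnh203-K46W and rnh201-null 0 of 28 were called in either direction, and 0% of all tiles, with 5 of 28 each at an unadjusted p under 0.05. Fewer libraries entered rnh201-null (2) than the other genotypes (3 each).

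Genotypes were compared arm by arm with all 17 libraries in 1 limma fit. No tile differed in density in any of the 6 contrasts, subtelomeric or other (0% of 584 tiles in each). At an unadjusted p under 0.05 there were 4 subtelomeric tiles where rnh203-K46W was set against WT, 2 for rnh201-G42S, 4 for rnh201-null, and 0 between the mutants. The median log2 difference of the 28 tiles was -0.09 for rnh203-K46W against WT beside 0.32 over all tiles, and -0.34 for rnh203-K46W against rnh201-G42S beside -0.00 over all tiles. For the strand ratio the calls were likewise 0 in each of the 6 contrasts (0% of tiles), with 0 to 4 subtelomeric tiles at an unadjusted p under 0.05, the most of them where rnh203-K46W was set against WT. The contrasts share libraries, so their values are not independent.

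In the deep libraries 3 arms had less signal in rnh203-K46W than in rnh201-G42S. These 3 of 28 tiles stand beside 1.03% of all tiles called lower in that contrast. At XII-R (1051744 to 1071743) the density was 0.380, 0.402 and 0.327 in rnh203-K46W, against 1.05, 0.715 and 0.644 in rnh201-G42S. The log2 difference was -0.92 ± 0.17 (SE, limma adjusted p 0.0261). At V-R (551761 to 571760) it was 0.492, 0.641 and 0.502 in rnh203-K46W, against 0.989, 1.14 and 0.927 in rnh201-G42S, a log2 difference of -0.79 ± 0.15 (adjusted p 0.0261). At II-R (793163 to 813162), the arm of the maltose genes MAL31, MAL32 and MAL33, it was 0.545, 0.475 and 0.470 in rnh203-K46W, against 1.03, 0.850 and 0.836 in rnh201-G42S, a log2 difference of -0.74 ± 0.14 (adjusted p 0.0261). In all 3 arms each rnh203-K46W library lay below each rnh201-G42S library, including replicate 3 of rnh201-G42S, the only one of the same library series. No tile passed when each position was counted once, with 9 subtelomeric tiles then at an unadjusted p under 0.05. For rnh203-K46W and for rnh201-G42S against rnh201-null, 0 of 28 tiles were called in the deep libraries, and 0% of all tiles, with 13 and 1 at an unadjusted p under 0.05.

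Strand ratios in the deep libraries gave no subtelomeric call between rnh203-K46W and rnh201-G42S, against 1.71% of all tiles called lower, with 9 of 28 at an unadjusted p under 0.05. With each position counted once 5 of 28 were lower in rnh203-K46W, against 5.14% of all tiles. Against rnh201-null the counts were 0 of 28 and 0% of all tiles for rnh203-K46W and rnh201-G42S, with 5 and 2 at an unadjusted p under 0.05.

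Windows of 1 kb gave 5 subtelomeric calls in all, which depended on the settings. Of 429 subtelomeric windows that passed the filter, 5 were higher in rnh203-K46W than in WT, or 1 at 5-10 kb and 4 at 10-20 kb, against 1.45% of all windows. The count was 0 with a pseudocount of 1, with library series as a covariate and in set A, and 0 to 50 when 1 library was left out. The other 5 contrasts gave 0 (0% of 11254 windows in each), with 86 subtelomeric windows at an unadjusted p under 0.05 where rnh201-G42S was set against WT and 33 where rnh201-null was. The window with the largest log2 difference was the one that holds XIII 911883, 911355 to 912354 on chromosome XIII, with 4.25 ± 1.22 (SE, limma adjusted p 0.0460). Its density was 46.3, 230, 2.95, 19.5 and 14.4 in rnh203-K46W, against 11.7, 0, 0, 7.49, 3.78 and 1.28 in WT, so the groups overlapped. The other windows were VII 1065393 to 1066392 (log2 difference 4.07), VIII 18001 to 19000 (3.73), XI 656355 to 657354 (3.47) and IV 16001 to 17000 (3.17), each with an adjusted p of 0.0382. In 3 of them no WT library had a value, and in that of chromosome VII only WT replicate 6 did, and the size of such a difference is set by the pseudocount. In the same windows the rnh201-G42S and deep rnh201-null libraries had values throughout, for example 0.487, 0.428 and 0.895 in rnh201-G42S and 0.998 and 0.629 in rnh201-null at VIII 18001 to 19000.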

How the data were processed

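Per the labels and design text, ribose-seq DNA reads were trimmed (cutadapt is listed in the submitters' processing notes), aligned to sacCer2 and filtered with Ribose-Map and the authors' scripts. The deposited value of each position and strand is a ratio, the authors' normalized enrichment factor; how it was normalized is not given in the sources used here. The table of 8216036 rows was merged by chromosome, coordinate and strand; no library had more than 1 value at a position. The 4 whole-genome samples have no column and were not used. Tiles of 20 kb and windows of 1 kb, cut from each end inwards, were compared on log2(density + 0.1) by limma's moderated test with a mean-variance trend (version 3.58.1, R 4.3.3) over all nuclear tiles or windows with a mean density of at least 0.1; a Benjamini-Hochberg adjusted p under 0.05 counted as a call. Log2 differences understate the change of low regions. The test was checked on simulated libraries of equal depth. That check does not cover the uneven depth of the real libraries. Replicate numbers follow accession order and pair nothing; p-values measure the spread between these libraries. Depth per library is given as positions with a value, since read totals were not used. Regions were named by a fixed rule: the extreme arms by density and strand ratio, called tiles and windows, and the 3 highest shared positions per genotype. The members, arm lists and tests were chosen with earlier results of these data known. Gene names and their order along an arm come from RefSeq (assembly R64, another build), without coordinates.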

Additional observations from a re-analysis of the deposited data

Results flagged for a closer look

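A library that stood far from the others of its genotype was looked for in 20 groups of libraries and values, and 8 were found. Chance gives about 1 in 20. The groups share libraries and related values, and depth differs within them, so the 8 are not independent and measure no excess over that rate. WT replicate 2 accounted for 6. Its density within 20 kb was 8.17, against 0.83 in the next WT library, its density in the outermost kilobase 157, against 5.05, and its median value per position relative to the interior 3.93, against 0.945. Its strand ratio was 5.23, against 0.74 in the next, and at 10-20 kb it was the lowest of WT, with a density of 0.295 and a strand ratio of -2.09. This library had 619 nuclear positions, and 27 of its 38 subtelomeric positions lay in the outermost 100 bp. rnh203-K46W replicate 2 accounted for the other 2, with a strand ratio of 1.21, against 0.36 in the next library of its genotype, and a density in the outermost kilobase of 1.95, against 0.615. It had 165 subtelomeric positions, of which XIII 911883 alone held 40.2% of the summed value.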

How the results depend on the processing

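No paired analysis was possible because the labels give the libraries no replicate numbers. Sets A and B, the deep libraries and the left ends at the first value were chosen after seeing the data. The genotype contrasts of 20 kb tiles, each with 0 calls, gave 6 with library quality weights for rnh203-K46W against WT, 7 with those weights and 3 in deep libraries for rnh203-K46W against rnh201-G42S, and 4 with library series as a covariate for rnh201-null against WT. Strand contrasts gave 1 with series for rnh201-null against WT, and 1 with weights and 5 in deep libraries with positions once for rnh203-K46W against rnh201-G42S; leaving out 1 library gave 0 to 1 for rnh203-K46W against WT. Strand ratios against 0 fell to 0 calls in rnh203-K46W (1 as reported) with a pseudocount of 1, positions once, series, either set, and deep libraries with or without positions once, and gave 4 with weights; leaving out 1 library gave 0 to 1. They gave 7 with weights, 13 in deep libraries and 20 there with positions once in rnh201-G42S, and in WT 2 with a pseudocount of 1, 6 with series and 0 to 2 without 1 library. The 5 windows of rnh203-K46W against WT became 0 with a pseudocount of 1, series or set A, 8 without WT replicate 2 and rnh201-null replicate 1, 16 with no filter, 83 with weights and 141 in set B, and 0 to 50 without 1 library. They were 0 without rnh203-K46W replicate 1, 3, 4 or 5, any rnh201-G42S library or WT replicates 1 to 4, 38 without rnh203-K46W replicate 2, 27 without rnh201-null replicate 1, 9 without WT replicate 5 and 50 without WT replicate 6. Windows of rnh201-G42S against WT were 84 with weights and 134 in set B. Those of rnh201-null against WT were 2 with a pseudocount of 1, 73 with weights, 1 with series, 129 in set B and 0 to 2 without 1 library. Those of rnh203-K46W against rnh201-null were 1 with a pseudocount of 1, 4 with weights, 38 in set B and 0 to 1 without 1 library. Set B gave 17 where rnh201-G42S was set against rnh201-null, and 18 where rnh203-K46W was set against rnh201-G42S. Mean density moved to 0.338 in rnh203-K46W, 0.448 in rnh201-G42S and 0.431 in rnh201-null over 10 kb. It was 0.622 in rnh201-G42S and 0.589 in rnh201-null with positions once, and without empty bins 0.791 in rnh201-G42S and 0.723 in rnh201-null. In rnh201-G42S it was 0.607 with left ends at the first value and 0.566 within series 300. The rnh201-G42S strand ratio was 0.30 in set B. No genotype's mean strand ratio changed sign, but that of single libraries did. It was below 0 without the outermost 1 kb in WT replicates 2, 4 and 5 (-0.98, -0.02 and -0.17), and over 10 kb in rnh203-K46W replicate 1 (-0.19), rnh201-null replicates 2 and 3 (-0.05 and -0.03) and WT replicate 3 (-0.01). The cause of these changes was not tested. WT density without replicate 2 was 0.672. No WT library was deep, so WT contrasts are limited by depth.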
